A study of Mus musculus with 8 samples.

Results

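The genes described here carry antigen presentation by MHC class I and its peptide loading: the heavy chains H2-K1, H2-D1, H2-Q4, H2-Q7 and H2-T23, the light chain B2m, the peptide transporter subunits Tap1 and Tap2, tapasin (Tapbp) and the transactivator Nlrc5. Members were the spots that are not controls and carry one of these 10 gene names in the array files. Of the 10 genes, 9 had a probe under that name, with 11 probes among the 39429 on the array. All 11 were tested, among 28329 probes whose signal was well above background on 4 or more of the 8 arrays; these covered 19778 genes. H2-Q4 had no probe under its own name, and a probe assigned to it through its RefSeq accession is described apart and left out of every count.

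RNA came from ovarian tumours of female C57BL/6JTgMISIIR-TAg mice, which carry the MISIIR-TAg transgene; it puts SV40 T antigen under the Amhr2 promoter, which is active in the female reproductive tract. All 8 mice bore tumours of about 500 mm3. The vehicle group of 4 received 0.5% hypermellose with 0.1% Tween 80, and the AZD1480 group of 4 received 30 mg/kg of AZD1480, an inhibitor of the kinases JAK1 and JAK2, in the same vehicle. Tumours were collected 6 h later and hybridised singly to one-colour arrays, so the comparison asks which class I transcripts differ soon after JAK inhibition. The labels give no age and no control without a tumour.

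On a nucleated cell, a class I molecule consists of a heavy chain, B2m and a short peptide. Proteasomes cut the peptides, Tap1 and Tap2 together pump them into the endoplasmic reticulum, tapasin holds the empty heavy chain next to the transporter, and aminopeptidases trim the peptides to length. Interferons raise transcription of the whole pathway through JAK kinases, STAT factors and interferon regulatory factors, and Nlrc5 is the transactivator that assembles at class I promoters. H2-K1 and H2-D1 are the classical heavy chains that present to CD8 T cells, while H2-Q7 and H2-T23 (Qa-2 and Qa-1) are non-classical.

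Heavy chain genes resemble one another so closely that the probes themselves matter for the reading. The probe sequences of H2-K1 (A_55_P2049647, mm9 chr17:34133984-34134043, minus strand) and H2-T23 (A_51_P237754, mm9 chr17:36167338-36167574, minus strand, 60 bases over a genomic span of 237) are shown because they share an identical run of 29 bases, in capitals, which codes for the end of the membrane-spanning segment. The 2 signals are therefore not fully independent.
H2-K1: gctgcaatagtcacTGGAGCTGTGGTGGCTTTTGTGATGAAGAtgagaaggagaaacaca
H2-T23: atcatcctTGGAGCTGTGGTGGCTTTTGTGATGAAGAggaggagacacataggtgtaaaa
The same H2-K1 probe also shares 22 bases with a probe of LOC100044874, and the H2-Q7 probe (A_55_P1978511, mm9 chr17:35580315-35580374) shares 28 bases with a probe of Gm7035. The H2-T23 probe shares 20 bases with a probe of a transcript that has no gene symbol. The other H2-K1 probe (A_51_P198434, mm9 chr17:34133055-34133114) and the H2-D1 probe (A_65_P19395, mm9 chr17:35403886-35403945) share no run of 20 bases or more with any other gene's probe on the array. Signal from near-identical class I transcripts that have no probe cannot be told apart from the named gene.

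The promoters also look alike. RefSeq windows on GRCm38.p6 were found for 8 of the 10 genes; Tap2 and Nlrc5 were not among them. The stretches below are shown, 5′ to 3′ along the gene, because they carry the element of class I promoters that interferon regulatory factors can recognise. Capitals mark GGGGATTCC, 1 exact form of the NF-kB motif, and the interferon regulatory factor core AANNGAAA, which reads TTTCACTT where it lies on the opposite strand. In B2m the capitals mark GAAANNGAA, the interferon-stimulated response element, together with the core that overlaps it.
H2-K1, chr17:34000415-34000473, minus strand: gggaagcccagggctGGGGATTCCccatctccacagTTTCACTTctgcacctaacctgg
H2-D1, chr17:35262908-35262966, plus strand: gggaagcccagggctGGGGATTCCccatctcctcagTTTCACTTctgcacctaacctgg
H2-Q7, chr17:35439007-35439064, plus strand: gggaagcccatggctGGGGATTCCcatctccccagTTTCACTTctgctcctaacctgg
H2-Q4, chr17:35379449-35379486, plus strand: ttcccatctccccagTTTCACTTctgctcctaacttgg
B2m, chr2:122147533-122147572, plus strand: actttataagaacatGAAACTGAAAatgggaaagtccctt
In the 250 bases before the gene start, on either strand, AANNGAAA lay in 6 of the 8 member genes (B2m, H2-D1, H2-K1, H2-Q4, H2-Q7 and H2-T23) and in 21.3% of all 32851 RefSeq windows. GAAANNGAA lay in B2m and H2-T23 and in 7.13% of all windows, and GGGGATTCC lay in H2-D1, H2-K1 and H2-Q7 and in 0.213%. GGGGATTCC was searched as 1 exact word, and other forms of the NF-kB motif were not counted. Its share is therefore not comparable with those of motifs that have open letters. The H2-Q4 window holds ggggatttccc, which this word does not match. CCAAT, the motif bound by NF-Y, lay in 8 of 8 and in 33.8%. TTCNNNGAA, a form bound by STAT dimers, lay in 0 of 8 and in 7.02%. These matches describe letters in a window and not sites in use.

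The class I transcripts were lower in the AZD1480 tumours on every member probe, but none passed the test over all probes. Probe A_55_P2016034 of Nlrc5 had the greatest difference among the 11 probes, at -2.20 ± 0.53 on the log2 scale. Values are mean difference ± moderated SE from limma, with 4 tumours in each group. The heavy chains followed at -1.28 to -1.59, B2m at -0.96, the transporter subunits at -0.59 and -0.61, and tapasin at -0.23. The other Nlrc5 probe (A_66_P113043) was at -0.49. Levels and differences are log2 processed intensity minus the 75th percentile of all non-control probes on that array, so 0 is that percentile and a step of 1 is 2-fold. The median over the 11 probes was -1.28, against 0.058 over all tested probes. All 11 were lower, where 41.9% of all tested probes were.

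With Benjamini-Hochberg adjustment over all 28329 probes, limma called 0 probes (0%) and 0 members. The members' adjusted p was 0.953 and the smallest of any probe was 0.656. At an unadjusted limma p under 0.05, 8 of the 11 member probes were lower, where 1.62% of all tested probes were lower and 3.64% differed in either direction. These 8 covered 7 genes, all but Tap1 and Tapbp of the 9 genes measured. The number depended on single arrays. It was 3 without vehicle replicate 1 (1.15% of all tested probes were lower) and 3 without vehicle replicate 3 (1.07%). It was also 3 without AZD1480 replicate 2 (1.51%), and 4 without vehicle replicate 4 (1.27%). At least 2-fold lower were 6 of 11 probes, against 4.65% of all tested probes. On 2 probes, those of Tap2 and one of Nlrc5, every AZD1480 array lay below every vehicle array, against 1.25% of all tested probes.

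**Figure D1:**
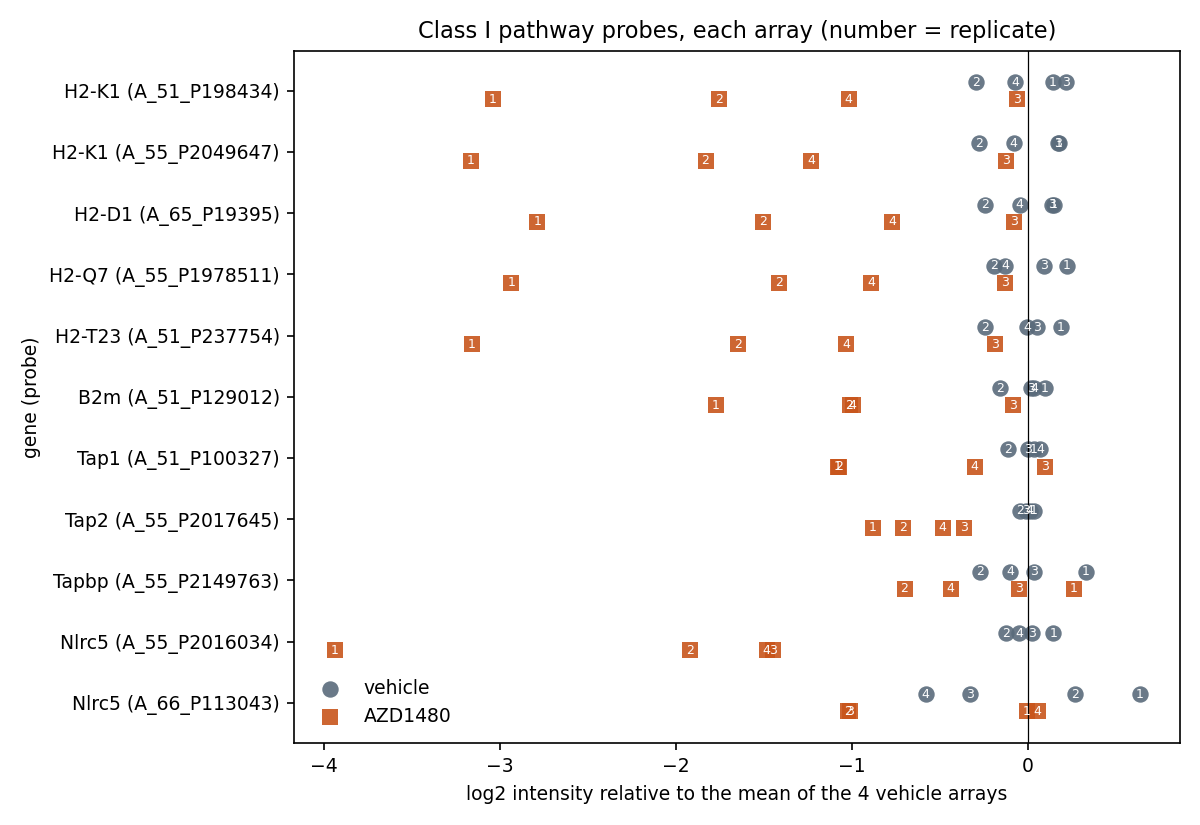
Each row is a member probe and each point an array (circles, vehicle; squares, AZD1480; the number inside is the replicate), on a log2 scale relative to the mean of the 4 vehicle arrays. Vehicle arrays cluster near 0, AZD1480 replicate 1 lies farthest to the left on 9 of the 11 probes, all but Tapbp and the dim Nlrc5 probe (A_66_P113043), and AZD1480 replicate 3 lies near the vehicle arrays except for Tap2 and the 2 Nlrc5 probes.

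The classical heavy chain H2-K1 was read by 2 probes that gave the same order of arrays among the AZD1480 tumours. On probe A_51_P198434, which had 10 spots per array, the vehicle arrays were at 5.87, 5.44, 5.95 and 5.66 and the AZD1480 arrays at 2.69, 3.97, 5.67 and 4.71, in the order of replicates 1 to 4. The spots of this probe differed within an array by an SD of 0.030 to 0.062, far less than the tumours did. The difference was -1.47 ± 0.57 (limma unadjusted p = 0.0332, 2.77-fold). On probe A_55_P2049647 the vehicle arrays were at 4.46, 4.01, 4.46 and 4.21 and the AZD1480 arrays at 1.12, 2.45, 4.16 and 3.05, a difference of -1.59 ± 0.57 (limma unadjusted p = 0.0247). On both, AZD1480 replicates 1, 2 and 4 lay below every vehicle array, replicate 1 lowest, and replicate 3 lay within the vehicle range.

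H2-D1, the other classical heavy chain, had vehicle arrays at 4.84, 4.45, 4.83 and 4.65 and AZD1480 arrays at 1.90, 3.19, 4.61 and 3.92. Its difference was -1.28 ± 0.53 (limma unadjusted p = 0.0407, 2.44-fold). Again AZD1480 replicate 3 alone overlapped the vehicle arrays.

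Both non-classical heavy chains followed the same order. H2-Q7, which encodes a Qa-2 antigen, was at 4.83, 4.41, 4.69 and 4.47 in vehicle and at 1.67, 3.19, 4.47 and 3.71 in AZD1480, a difference of -1.34 ± 0.54 (limma unadjusted p = 0.0377). H2-T23 encodes Qa-1, which presents leader peptides of other heavy chains to receptors of natural killer cells. It was at 4.59, 4.16, 4.45 and 4.40 in vehicle and at 1.24, 2.76, 4.22 and 3.37 in AZD1480, a difference of -1.50 ± 0.57 (limma unadjusted p = 0.0292). For both genes AZD1480 replicate 3 was within the vehicle range and the other AZD1480 replicates were below it.

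B2m, the light chain that every classical class I molecule needs, followed the order of the heavy chains. Vehicle arrays were at 5.44, 5.18, 5.36 and 5.38 and AZD1480 arrays at 3.57, 4.33, 5.26 and 4.35 (probe A_51_P129012, mm9 chr2:121978401-121978460). The difference was -0.96 ± 0.33 (limma unadjusted p = 0.0193, 1.95-fold). AZD1480 replicate 3 overlapped the vehicle arrays here too, and replicates 2 and 4 were almost equal.

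The 6 probes of the heavy chains and B2m moved together within a tumour. Relative to the vehicle mean they lay between -3.16 and -1.77 on AZD1480 replicate 1, between -1.83 and -1.01 on replicate 2, between -0.18 and -0.061 on replicate 3 and between -1.23 and -0.77 on replicate 4. On the vehicle arrays they lay between -0.29 and 0.22. The order of the AZD1480 tumours was thus nearly common to these probes, of which the H2-K1 and H2-T23 probes share sequence. In bulk tumour RNA, fewer cells of a type and less RNA per cell cannot be told apart.

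The transporter subunits are both encoded on chromosome 17 but differed in their spread. Tap1 (A_51_P100327, mm9 chr17:34330854-34330913, 10 spots per array) was at -1.39, -1.54, -1.42 and -1.35 in vehicle and at -2.51, -2.50, -1.33 and -1.73 in AZD1480. Its difference was -0.59 ± 0.29 (limma unadjusted p = 0.0736), and AZD1480 replicate 3 was above all vehicle arrays. Tap2 (A_55_P2017645, mm9 chr17:34353116-34353175) was at 3.06, 2.97, 3.01 and 3.03 in vehicle and at 2.14, 2.31, 2.66 and 2.54 in AZD1480, a difference of -0.61 ± 0.16 (limma unadjusted p = 0.00534, 1.52-fold). The Tap2 groups did not overlap, with a gap of 0.32 between the lowest vehicle and the highest AZD1480 array. The two-sided exact permutation p for Tap2 was 0.0286, the smallest that 4 against 4 arrays allow and the value that any non-overlap gives. The same exact permutation test gave p of 0.0571 to 0.0857 for the heavy chain and B2m probes. It gave 0.143 for Tap1, 0.371 for Tapbp and 0.229 for Nlrc5 probe A_66_P113043.

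Tapbp, the gene of tapasin, overlapped between the groups. Vehicle arrays were at 3.21, 2.61, 2.92 and 2.78 and AZD1480 arrays at 3.15, 2.18, 2.84 and 2.45 (A_55_P2149763, mm9 chr17:34065963-34066022). The difference was -0.23 ± 0.25 (limma unadjusted p = 0.382), with a 95% interval of -0.80 to 0.34. AZD1480 replicate 1, the lowest array for the heavy chains, was higher than 3 of the 4 vehicle arrays for Tapbp.

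Nlrc5, the class I transactivator, was read by a probe of moderate signal and by a dim one. On A_55_P2016034 (mm9 chr8:97051105-97051164) the vehicle arrays were at -1.15, -1.42, -1.27 and -1.34 and the AZD1480 arrays at -5.24, -3.22, -2.74 and -2.78. The difference of -2.20 ± 0.53 is 4.58-fold (limma unadjusted p = 0.00337, the 59th smallest of 28329). The groups did not overlap, with a gap of 1.32, and the two-sided exact permutation p was again 0.0286. All 4 AZD1480 arrays, replicate 3 included, were more than 2-fold below the lowest vehicle array on this probe.

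The dim Nlrc5 probe did not show the same separation. A_66_P113043 (mm9 chr8:97030478-97030624, 60 bases over a span of 147) was well above background on all 4 vehicle arrays and on 2 of the 4 AZD1480 arrays. It was at -5.69, -6.06, -6.66 and -6.91 in vehicle and at -6.34, -7.35, -7.34 and -6.27 in AZD1480, a difference of -0.49 ± 0.38 (limma unadjusted p = 0.227). On it AZD1480 replicates 1 and 4 lay within the vehicle range, so the 2 probes of this gene disagree in size and in which tumours are low.

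The probe that RefSeq assigns to H2-Q4 is named H2-gs10 in the array files (A_55_P1956302, mm9 chr17:35521294-35521353) and behaved unlike the other heavy chains. It was at 6.30, 5.90, 5.63 and 5.36 in vehicle and at 5.12, 5.30, 4.36 and 7.91 in AZD1480. AZD1480 replicate 4 was the highest array and the other AZD1480 arrays were below the vehicle arrays. The difference was -0.12 ± 0.71 (limma unadjusted p = 0.865), and 0.059 without AZD1480 replicate 1.

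Leaving out AZD1480 replicate 1, which was the lowest array for the heavy chains, kept every member probe below vehicle, where 44.5% of all tested probes were lower. The median over the member probes was then -0.78, against 0.036 over all tested probes. At an unadjusted limma p under 0.05, 8 of 11 were lower, where 1.87% of all tested probes were lower and 4.11% differed in either direction. Only 2 of 11, H2-K1 (A_55_P2049647) and Nlrc5 (A_55_P2016034), were then at least 2-fold lower, against 2.25% of all tested probes. The groups did not overlap on 2 of 11, against 2.17%. Limma with Benjamini-Hochberg adjustment called 0 of 28329 probes (0%) without this array, with 0.0762 as the smallest adjusted p of any probe.

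Probe by probe, H2-K1 was at -0.94 and -1.06 without that array, H2-D1 at -0.78, H2-Q7 at -0.81 and H2-T23 at -0.95. B2m was at -0.70, Tap1 at -0.42, Tap2 at -0.52 and Tapbp at -0.39. Nlrc5 was at -1.62 ± 0.17 on A_55_P2016034 (3.06-fold, limma unadjusted p = 3.13e-05, adjusted p = 0.311) and at -0.66 on the dim probe. On A_55_P2016034 the 3 remaining AZD1480 tumours lay between -3.22 and -2.74.

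**Figure D2:**
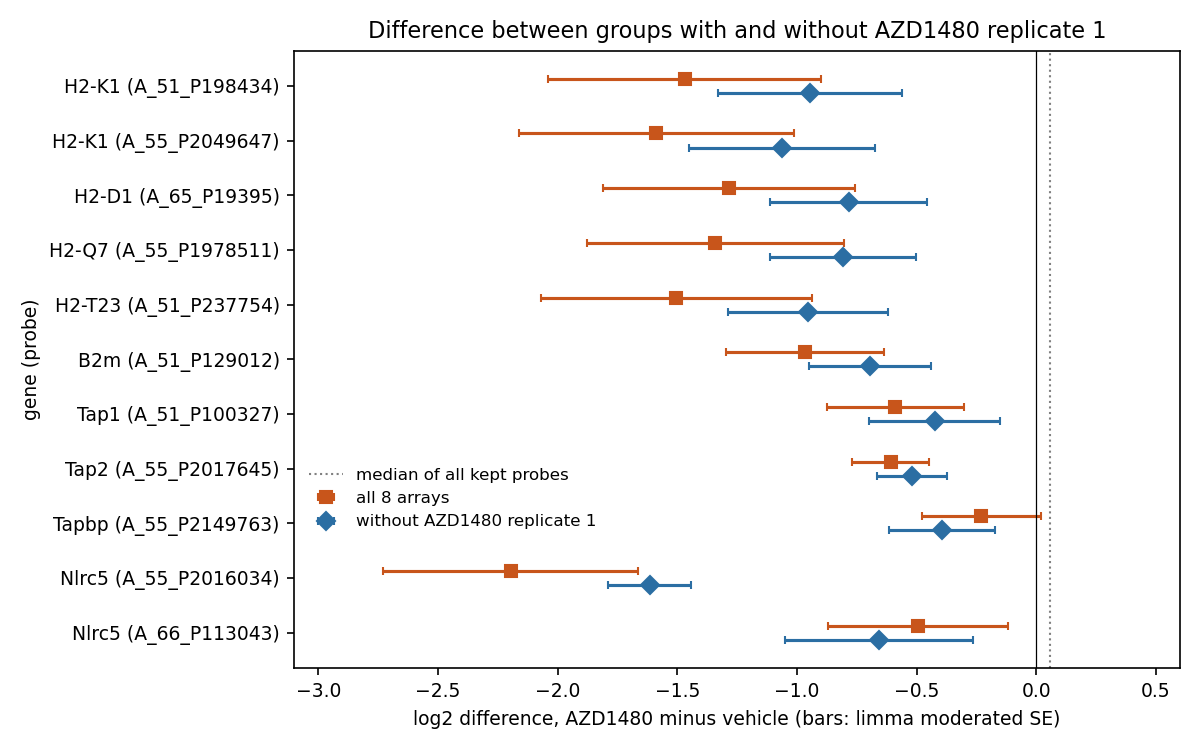
Log2 difference of AZD1480 minus vehicle for each member probe with all 8 arrays (squares) and without AZD1480 replicate 1 (diamonds); bars are limma's moderated SE and the dotted line is the median of all tested probes, 0.058. All points lie below 0; without the array the heavy chains, B2m, both transporter subunits and Nlrc5 (A_55_P2016034) lie nearer 0, and Tapbp and the dim Nlrc5 probe lie farther from it.

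Against all tested probes, the members lay in the lower part of the distribution of differences. At or below Nlrc5 (A_55_P2016034) lay 0.55% of all tested probes, at or below the heavy chain probes 1.71% to 2.98%, at or below B2m 4.89% and at or below Tap1 9.35%. For Tap2 the share was 9.02%, for the dim Nlrc5 probe 11.1% and for Tapbp 19.97%.

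**Figure D3:**
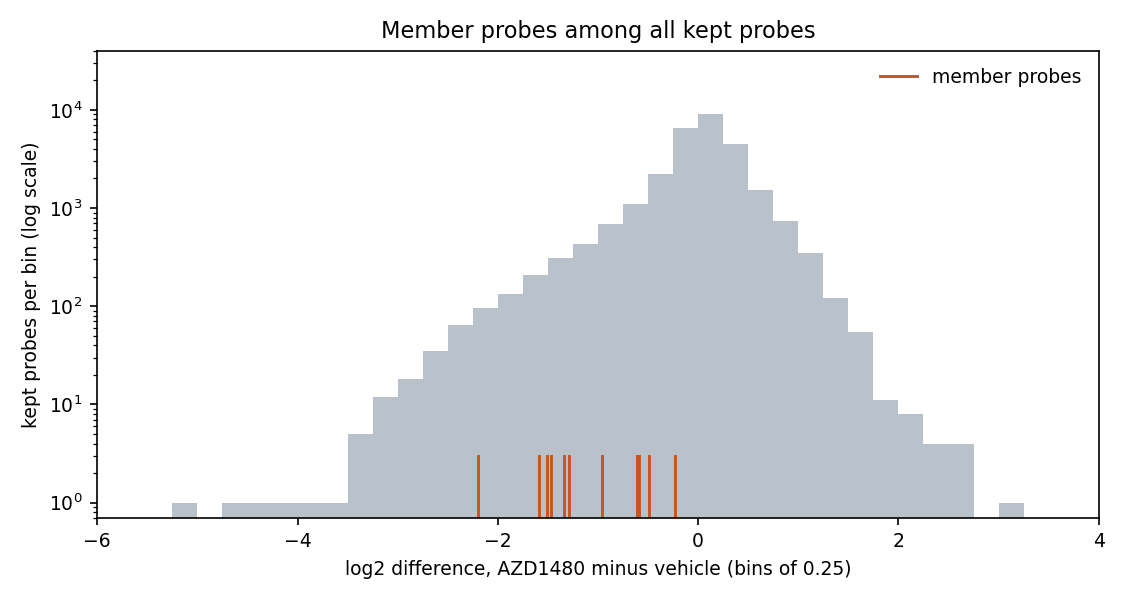
Histogram of the log2 difference, AZD1480 minus vehicle, over the 28329 tested probes in bins of 0.25 (vertical axis: probes per bin, log scale), with the 11 member probes as vertical lines whose height has no meaning. The lines run from -2.20 (Nlrc5 probe A_55_P2016034) to -0.23 (Tapbp), all to the left of 0.

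Each of the 2 slides, scanned separately, held 2 vehicle and 2 AZD1480 arrays, replicates 1 and 2 on slide 1 and 3 and 4 on slide 2. All 11 member probes were lower within slide 1 (43.5% of all tested probes), within slide 2 (45.6%) and within both (22.4%). The member median was -2.10 on slide 1 and -0.49 on slide 2. At least 2-fold lower on slide 1 were 8 of 11, against 10.3% of all tested probes. On slide 2 it was 1 of 11, Nlrc5 probe A_55_P2016034 at -1.45, against 2.23%. On slides 1 and 2, H2-K1 was at -2.32 and -0.61 (A_51_P198434), B2m at -1.36 and -0.57, and Tap2 at -0.79 and -0.43. Nlrc5 was at -2.94 and -1.45 on A_55_P2016034 and at -0.97 and -0.022 on the dim probe.

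The difference between the slides was tested by limma as an interaction of treatment and slide. It called 0 of 28329 probes (0%) after Benjamini-Hochberg adjustment, and 1.52% at an unadjusted p under 0.05. Of the members, Tap1 alone was under 0.05 unadjusted (-1.04 on slide 1 and -0.14 on slide 2, limma unadjusted p = 0.0271, adjusted p = 0.993). The slide difference also is a difference between mice, since no tumour was on both.

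The arrays otherwise compared as follows. Between 66.9% and 76.4% of spots were well above background, and the scaling percentile of slide 1 (4706 to 5795) was above that of slide 2 (1587 to 2783). No member spot was saturated. Most bright member spots had been read from the low-gain scan, on 4 of 4 vehicle arrays and 2 to 4 of 4 AZD1480 arrays for the heavy chain, B2m and Tap2 probes. The carcinoma label was checked with 15 epithelial tumour markers, all of them tested. The 2 brightest, Wt1 and Krt18, were at 4.44 to 5.20 and at 3.40 to 5.88 on the 8 arrays. Other markers were dim or uneven, named here after their values were seen: Epcam was at -5.46 to -0.29, Cdh1 at -6.26 to -0.75 and Muc16 at -6.70 to 0.53. Amhr2, whose promoter drives the transgene, was at 5.39 on vehicle replicate 1 and 6.83 on AZD1480 replicate 1 and at -0.75 to 1.43 on the other arrays.

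The rest of the class I pathway was described by lists of genes, 1 probe per gene. The lists were drawn up with earlier results of these data known, so their counts are descriptions. Over all 19778 genes, 43.5% were lower, 1.74% were lower and 1.72% higher at an unadjusted limma p under 0.05, 0 genes (0%) passed after adjustment, and the median was 0.045. No listed gene passed after adjustment. Without AZD1480 replicate 1 the shares were counted over all tested probes and not over genes. There 44.5% were lower, and 1.87% were lower at an unadjusted limma p under 0.05.

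Among other class I and class I-like heavy chains, 16 of 17 tested genes were lower, 9 of them at an unadjusted limma p under 0.05, with a median of -0.83. Without AZD1480 replicate 1, 14 of 17 were lower, 9 of them at that threshold, with a median of -0.73. Of all tested probes, 44.5% were then lower and 1.87% were lower at that threshold. Runs shared among the probes of this list were not searched, so these genes cannot be counted as separate signals. The 3 with the smallest p were H2-T10, H2-T9 and H2-M3. H2-T10 encodes a ligand of gamma delta T cells. It was at 0.31, 0.30, -0.27 and -0.061 in vehicle and at -1.14, -0.68, -0.45 and -1.05 in AZD1480 (-0.90 ± 0.22, limma unadjusted p = 0.00390). Every AZD1480 array lay below every vehicle array, as on 1.25% of all tested probes. H2-T9, its close relative, was at -0.83 ± 0.25, and H2-M3, which presents formylated peptides, at -0.60 ± 0.21. The 1 gene of the list with a positive difference was Fcgrt (0.19 ± 0.25), the neonatal Fc receptor, named here after its value was seen.

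Of 10 tested genes of peptide supply 8 were lower, 3 of them at an unadjusted limma p under 0.05, with a median of -0.24. The 3 were the catalytic subunits Psmb9 (-0.94 ± 0.16), Psmb8 (-1.03 ± 0.17) and Psmb10 (-0.68 ± 0.21). Psmb8 was at 2.45, 2.16, 2.24 and 2.15 in vehicle and at 1.22, 1.44, 1.35 and 0.86 in AZD1480. Psmb9, whose gene lies beside Tap1, was at 2.69, 2.54, 2.75 and 2.53 in vehicle and at 1.65, 1.67, 1.97 and 1.47 in AZD1480. For both genes all 4 AZD1480 arrays, replicate 3 included, lay below every vehicle array, as on 1.25% of all tested probes. Both were named for a small p in this list, which favours such a separation.

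Chaperones and trimming enzymes of the endoplasmic reticulum were near 0 as a list. Of 10 tested, 7 were lower and 3 higher, 1 at an unadjusted limma p under 0.05, and the median was -0.083. That 1 was Erap1, the aminopeptidase that trims class I peptides (-0.50 ± 0.18). Tapbpl, the tapasin-related editor of peptides, was at -0.57 ± 0.26 (-0.33 without AZD1480 replicate 1) and Pdia3, the thiol oxidoreductase of the loading complex, at -0.17 ± 0.21.

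Of the transcription factors that act at class I promoters, 9 of 13 were lower and 0 were at an unadjusted limma p under 0.05 in either direction, with a median of -0.089. Irf1 was at -0.34 ± 0.19, Irf2 at -0.37 ± 0.24 and Rfx5, a subunit of the complex that Nlrc5 joins, at 0.15 ± 0.27. In the interferon signalling list 8 of 12 were lower, 2 at an unadjusted limma p under 0.05, with a median of -0.16. These were Irf9 (-1.13 ± 0.27) and Stat2 (-0.53 ± 0.21), which act in one complex downstream of type I interferon. The transcripts of the drug's targets were at 0.055 ± 0.32 for Jak1 (-0.23 without AZD1480 replicate 1) and -0.58 ± 0.37 for Jak2 (-0.22 without it).

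Tumour by tumour, AZD1480 replicate 3 separated the genes of this pathway. Its heavy chains and B2m lay 0.061 to 0.18 below the vehicle mean and Tap1 lay 0.097 above it. Psmb8 was at -0.90, Psmb9 at -0.66 and Tap2 at -0.36. Nlrc5 was at -1.45 on A_55_P2016034 and at -1.01 on the dim probe. Over all 11 probes the medians relative to the vehicle mean were -2.79, -1.41, -0.12 and -0.89 on AZD1480 replicates 1 to 4, and -0.19 to 0.15 on the vehicle arrays. This split rests on 1 tumour and was not tested.

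Marker lists of macrophages, class II genes, T and NK cells and ciliated cells were at their lowest on AZD1480 replicate 1, and their values are given beside the class I genes. Also lowest there were fibroblasts and stroma (-1.57 relative to the vehicle mean), epithelial tumour cells (-1.16), dendritic cells (-0.90) and B and plasma cells (-0.88). The lists of neutrophils, endothelial cells, adipocytes and erythroid cells were lowest on other arrays. Of 19 tested macrophage and monocyte markers 18 were lower (3 at an unadjusted limma p under 0.05), with a median of -0.54 and, without AZD1480 replicate 1, -0.13. Relative to the vehicle mean their medians were -1.81, -0.32, 0.20 and -0.37 on AZD1480 replicates 1 to 4 and -0.24 to 0.29 on the vehicle arrays. Their summed level was 5.60 to 5.82 in vehicle and 4.29 to 6.27 in AZD1480, lowest on replicate 1. The brightest genes of the list were Itgam and Ctss, and Cd163 had no array well above background. The sum leans on Itgam, which was at 5.52 on AZD1480 replicate 4, where the list median was -0.37. On replicate 2 this list was at -0.32 and the heavy chains and B2m at -1.83 to -1.01. The part of these cells in the class I differences was not tested.

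Class II genes, whose products are found mainly on professional antigen-presenting cells, were lower for 9 of 9, with 0 at an unadjusted limma p under 0.05. Their median was -0.49, and -0.14 without AZD1480 replicate 1. H2-DMa, H2-DMb1 and H2-Ob had the smallest p (-0.63 ± 0.32, -0.96 ± 0.52 and -0.64 ± 0.41). Without AZD1480 replicate 1 they were at -0.51, -0.41 and -0.22. The list was at -1.77, -0.030, 0.012 and -0.45 on AZD1480 replicates 1 to 4 and between -0.64 and 1.27 on the vehicle arrays.

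T and NK cell markers were lower for 7 of 12, with a median of -0.25 and, without AZD1480 replicate 1, -0.032. Their summed level was 1.57 to 1.73 in vehicle and 1.27 to 1.81 in AZD1480, and for Ncr1 and Klrk1 no array had a signal well above background. Epithelial tumour markers were lower for 14 of 15, 1 of them at an unadjusted limma p under 0.05, with a median of -0.47. Without AZD1480 replicate 1, 11 of 15 were lower, with a median of -0.36. The list was at -1.16, -0.99, -0.18 and -0.34 on AZD1480 replicates 1 to 4 and between -1.07 and 0.84 on the vehicle arrays. Ciliated cell markers stood apart on AZD1480 replicate 1, at -6.11 as against -0.13 to -0.090 on the other AZD1480 arrays, and their transcription factor Foxj1 was at -2.22 there and at 3.33 to 4.06 elsewhere. Whether the makeup of that tumour bears on its class I values was not tested; the values without it are given above.

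**Figure D4:**
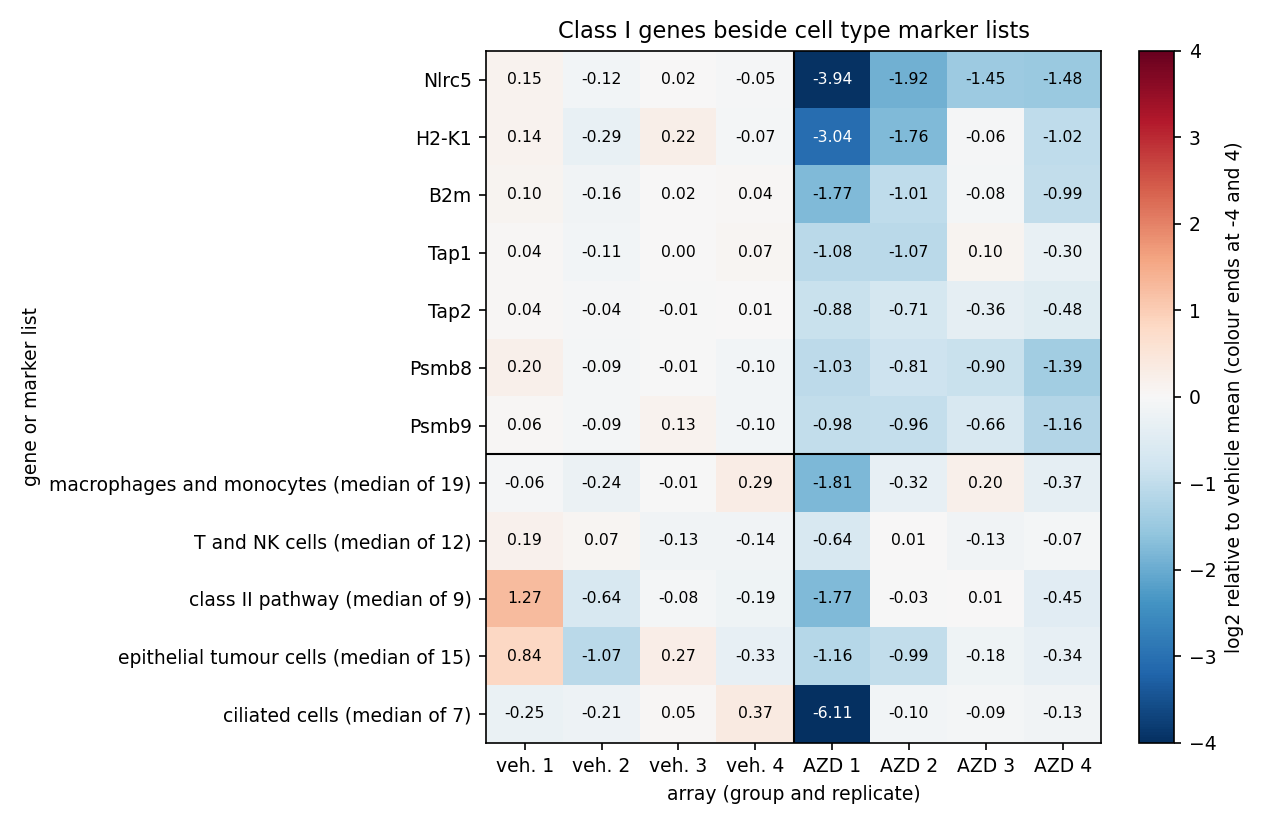
Rows are class I pathway genes (above the line) and medians of marker lists (below it), columns are the 8 arrays, and each cell gives the log2 value relative to the vehicle mean; colours end at -4 and 4. The Nlrc5 row is probe A_55_P2016034 and the H2-K1 row is A_51_P198434. The rows of Nlrc5, Tap2, Psmb8 and Psmb9 are negative on all 4 AZD1480 arrays, and H2-K1 and B2m are near 0 on AZD1480 replicate 3. The dim Nlrc5 probe is not drawn and was at 0.058 on AZD1480 replicate 4. The macrophage, T and NK cell, class II, epithelial and ciliated lists are all lowest on AZD1480 replicate 1.

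Genes with the pattern most like that of B2m included the heavy chains H2-K2 and H2-Q5 when all arrays were used. By Pearson correlation of log2 levels over the 8 arrays, which share the treatment difference and AZD1480 replicate 1, the 5 nearest non-members among 19777 genes were LOC100044874 (0.985), H2-K2 (0.981), Klra2 (0.979), Serpinb9 (0.979) and H2-Q5 (0.979). The members H2-T23 (0.977) and H2-K1 (0.976) were close behind, as were H2-D1 (0.966) and H2-Q7 (0.969), with Tap2 at 0.934, Nlrc5 at 0.927 and Tap1 at 0.904. Tapbp was at 0.182 over 8 arrays and at 0.878 over the 7 without AZD1480 replicate 1. Over those 7 arrays the nearest included Mzt2, Rbm17, 1810009N02Rik and Samsn1 (0.977 to 0.983), of which Rbm17 was at -0.120 over all 8, so the ranking rests on which arrays enter.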

How the data were processed

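The 8 tumour RNAs, each from a separate mouse by the labels, were labelled with Cy3. Agilent Feature Extraction 9.5.3 read the scans, per the submitters' processing notes. A spot's processed intensity is background-subtracted but carries no scaling across arrays, per the file headers. A log2 value table that the authors deposited had the same median (8.36) in every column. Its columns correlated with log2 raw mean intensity at 0.996 to 1.000, its offset is unknown here, and it served as an alternative.

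Log2 processed intensities were set relative to each array's 75th percentile, spots of a probe were averaged without outlier flags, and probes dim on more than 4 of 8 arrays were left out. All kept probes were fitted in limma 3.58.1 (R 4.3.3; lmFit then eBayes, treatment only, two-sided), with Benjamini-Hochberg adjustment and a threshold of 0.05; the script was tested on simulated data. Exact permutation tests used all 70 splits of 8 arrays into 4 and 4. For lists, a gene was its brightest kept probe, and 26055 probes were named through RefSeq accessions. The 4 arrays per group and signal near background limit the precision.

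Members, lists and tests were chosen with earlier results of these data known. Named were all member probes, the 3 genes with the smallest p of each pathway list with Irf1, Rfx5, Jak1 and Jak2, the 2 brightest genes of each cell type list, and the 5 genes most correlated with B2m over 8 and over 7 arrays; 2 genes that this rule names are not reported here. Probe coordinates are those of the files (mm9) and promoters are from RefSeq (GRCm38.p6); exon positions of the probes were not analysed here. The alternatives were other background corrections, scalings, filters and spot rules, the authors' table, slide and replicate number as terms, single slides, array weights, 1 probe per gene and leaving out each array.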

Additional observations from a re-analysis of the deposited data

How the results depend on the processing

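Over 21 alternatives, 0 member differences changed sign, and limma with Benjamini-Hochberg adjustment called 0 probes in each; at an unadjusted p under 0.05 there were 1030 probes in the fit as reported. All member probes tested were lower in each alternative (10 of 10 with a filter on all 8 arrays, 9 of 9 with 1 probe per gene, 11 of 11 in the others). The number of member probes lower at an unadjusted limma p under 0.05 was 1 with slide 2 only (1.54% of all tested probes), against 8 in the fit as reported (1.62%). It ranged from 3 to 9 when an array was left out, where 1.07% to 2.75% of all tested probes were lower. The member median was -2.10 with slide 1 only and ranged from -1.69 to -0.78 when an array was left out. In the replicate block fit, which adds the replicate number as a term, 7 member probes were lower at that threshold, against 2.12% of all tested probes. H2-Q7 was not among them (limma unadjusted p = 0.0537, adjusted p = 0.805), and the member median was -1.28. Deviations of same-numbered arrays from their group means correlated at 0.35, 0.37, 0.14 and -0.060, and 3 of 4 numbers matched best within themselves. Same-numbered arrays also shared a slide, and a shared slide was not separated from a shared number here. Whether same-numbered arrays form pairs was not settled. The labels give 2 groups of 4 mice and name no pairs, so the fit as reported left the samples unpaired. The replicate block fit gives the values with the number as a term. The authors' table gave 8 member probes, against 1.9% of all tested probes, and a member median of -1.33. Nlrc5 (A_55_P2016034) ran from -2.94 to -1.45 with an unadjusted limma p under 0.05 in 21 of 21, whereas Tapbp was under 0.05 in 0 and Tap1 in 3. The median of all tested probes lay between 0.016 and 0.117. Values of the dim Nlrc5 probe are limited by signal near background.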

Other observations

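The probe assigned to H2-Q4 (H2-gs10) was highest on AZD1480 replicate 4 and lowest on replicate 3, as were 3 bright marker genes of other lists; the order of the other arrays differed between them. It was 2.11 above the vehicle mean on AZD1480 replicate 4 and 1.43 below it on replicate 3. Csf3r, a neutrophil marker, was at 6.71 on AZD1480 replicate 4 and 4.30 on replicate 3, against 4.59 to 5.68 in vehicle. Siglech, a marker of plasmacytoid dendritic cells, was at 6.97 and 5.33, against 5.40 to 5.73 in vehicle, and the myeloid integrin gene Itgam at 5.52 and 2.10, against 2.87 to 3.89. These 3 genes were named after their values were seen and do not stand for their lists. On AZD1480 replicate 4 the list medians relative to the vehicle mean were -0.046 for neutrophils, -0.37 for macrophages and monocytes and 0.52 for dendritic cells.

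The remaining marker lists are given by their counts and medians, with all arrays and without AZD1480 replicate 1. With all arrays 43.5% of all genes were lower, and without that array 44.5% of all tested probes. B and plasma cell markers, led by Cd22 and Cd79b, were lower for 4 of 7 (median -0.44, and 0.27 without that array). Dendritic cell markers, led by Siglech and Batf3, were lower for 3 of 8 (0.20, and 0.24 without it). Neutrophil markers, led by Csf3r and S100a9, were lower for 3 of 6 (-0.094), and for 5 of 6 without that array (-0.55). Endothelial markers, led by Egfl7 and Kdr, were lower for 8 of 11 (-0.12, and -0.19 without it). Fibroblast and stromal markers, led by Acta2 and Dcn, were also lower for 8 of 11 (-0.12, and 0.17 without it). Adipocyte markers, led by Fabp4 and Pparg, were lower for 5 of 5 (-1.76, and -2.15 without it), with vehicle replicate 3 at 3.66 above the vehicle mean. Erythroid markers, led by Hba-a1 and Alas2, were lower for 1 of 3 (0.052), and for 3 of 3 without that array (-0.33). At an unadjusted limma p under 0.05 were 2 endothelial markers and 0 of the others in these 7 lists.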
